A study of Mus musculus with 6 samples.

Results

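SR proteins and hnRNPs are 2 large families of RNA-binding proteins that steer the splicing of pre-mRNA, and the genes of both were followed here in CD8+ T cells isolated from mouse liver. The members were the protein-coding genes whose symbol is Srsf with a number (SR family, 11 genes) or begins with Hnrnp (hnRNP family, 20 genes), 31 of the 54532 genes in the deposited count table. The study holds 3 libraries of the CUMS group and 3 of the control group. The labels leave CUMS unexplained and give it in the genotype field, where the control libraries read Wild type; the series' own text speaks of mice under chronic stress. Strain, age and sex were not stated. Nothing says that replicates were separate mice, so every p-value reflects spread among the 6 libraries alone, and that spread may be technical.

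SR proteins bind exonic sequences through RNA recognition motifs and recruit the spliceosome through a tail rich in arginine and serine, which the SRPK and CLK kinases phosphorylate. Many hnRNPs act against them by silencing exons, and members of both families also package, export, stabilise or degrade mRNA. Both families are known to limit their own levels by splicing their transcripts into forms that nonsense-mediated decay destroys. In T cells, splicing regulators are best known for the switch of CD45 isoforms upon activation, in which the hnRNP L-like protein and hnRNP L repress variable exons of Ptprc.

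Total counts ranged from 14902248 to 18012387 in the CUMS libraries and from 17642478 to 18023206 in the control libraries. Reads fell on 15012 genes in CUMS replicate 2 and 14670 in CUMS replicate 3, against 20292 in CUMS replicate 1 and 17616 to 19713 in the controls, so those 2 CUMS libraries stood apart. The 7 markers of CD8 T cells summed to 4038 to 4436 CPM (read counts per library total of 1000000 after TMM scaling) in CUMS and 3284 to 3559 CPM in control. The 6 markers of CD4 T cells summed to 169 to 182 CPM in CUMS and 383 to 432 CPM in control, and the 10 markers of monocytes and neutrophils to 2400 to 2822 CPM and 3581 to 5471 CPM. The 6 B cell markers summed to 626 to 693 CPM in CUMS and 611 to 658 CPM in control, the 6 NK cell markers to 98.6 to 116 CPM and 115 to 125 CPM, and the 9 hepatocyte markers to 114 to 132 CPM and 145 to 280.4 CPM. Most of that last sum was Hp, at 100.4 to 119 CPM in CUMS and 137 to 270.2 CPM in control, and the other 8 summed to 10.9 to 19.6 CPM in CUMS and 7.85 to 10.23 CPM in control. With edgeR 1 of 7 CD8 T cell markers rose, and 4 of 6 CD4 T cell markers and 4 of 10 monocyte and neutrophil markers fell. Of the B cell and NK cell markers 0 passed. Only 5 of the 9 hepatocyte markers were tested, and 0 of these passed. Of all these markers, 0 were without reads in every library. The part of these other cells in the values below was not tested. SR and hnRNP genes are used by every cell type, and in bulk RNA fewer cells of a type cannot be told apart from less RNA per cell.

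None of the 31 genes passed an adjusted p of 0.05 between CUMS and control, in either direction. This was 0 of 11 SR genes and 0 of 20 hnRNP genes by edgeR's quasi-likelihood test with Benjamini-Hochberg adjustment over 14054 genes, of which 1.31% passed (0.363% higher and 0.946% lower in CUMS). At an unadjusted p under 0.05, 5 members were higher in CUMS (Srsf5, Srsf2, Hnrnpd, Hnrnpa3 and Hnrnpr, of 31; 7.06% of all genes) and 2 were lower (Hnrnpa2b1 and Hnrnph2; 8.22% of all genes). In all, 7 of 31 stood below that unadjusted threshold, against 15.3% of all genes tested. DESeq2 and limma voom with sample quality weights also called 0 of 31, with 8 and 9 members at an unadjusted p under 0.05. Without 1 library 1 to 6 members stood below the unadjusted threshold, with 1 when CUMS replicate 2 was left out. Without CUMS replicates 2 and 3, a fit added after seeing the data, 1 CUMS library was left and the spread came from the controls alone. That fit called 7 genes in all and no member, and is no check on the members.

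The differences were small. Log2 fold changes (CUMS over control) ran from -0.15 to 0.39 in the SR family and from -0.39 to 0.30 in the hnRNP family. The median was 0.11 over the 11 SR genes and 0.02 over the 20 hnRNP genes, a difference of 0.09, beside a median of -0.01 over all genes tested. The difference of the family medians was 0.17 without CUMS replicate 1, 0.04 without CUMS replicate 2, 0.05 without control replicate 2 or 3 and 0.0005 without CUMS replicates 2 and 3, so its size depended on single libraries. In the SR family 6 fold changes were positive and 5 negative, and in the hnRNP family 11 were positive and 9 negative. The median size of the fold change regardless of sign was 0.15 in each family and 0.25 over all genes tested. The genes tested were not matched to the members by level, so these sizes are not a like comparison.

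These libraries bounded the differences tightly for most members. The 95% interval of the fold change lay within 1.5-fold either way for 8 of 11 SR genes (72.7%) and 19 of 20 hnRNP genes. It did so for 73.0% of the 5559 tested genes in the members' range of mean CPM (32.5 to 856). That range leaves out Srsf12, which the SR count includes, and the SR share was near that of these genes. The members outside the 1.5-fold bound were Srsf5, Srsf9, Srsf12 and Hnrnph2. For Srsf12, a paralog of Srsf10 with 29 to 71 reads a library, the interval ran from 0.46-fold to 2.68-fold. It takes in a 2-fold change in either direction.

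**Figure D1:**
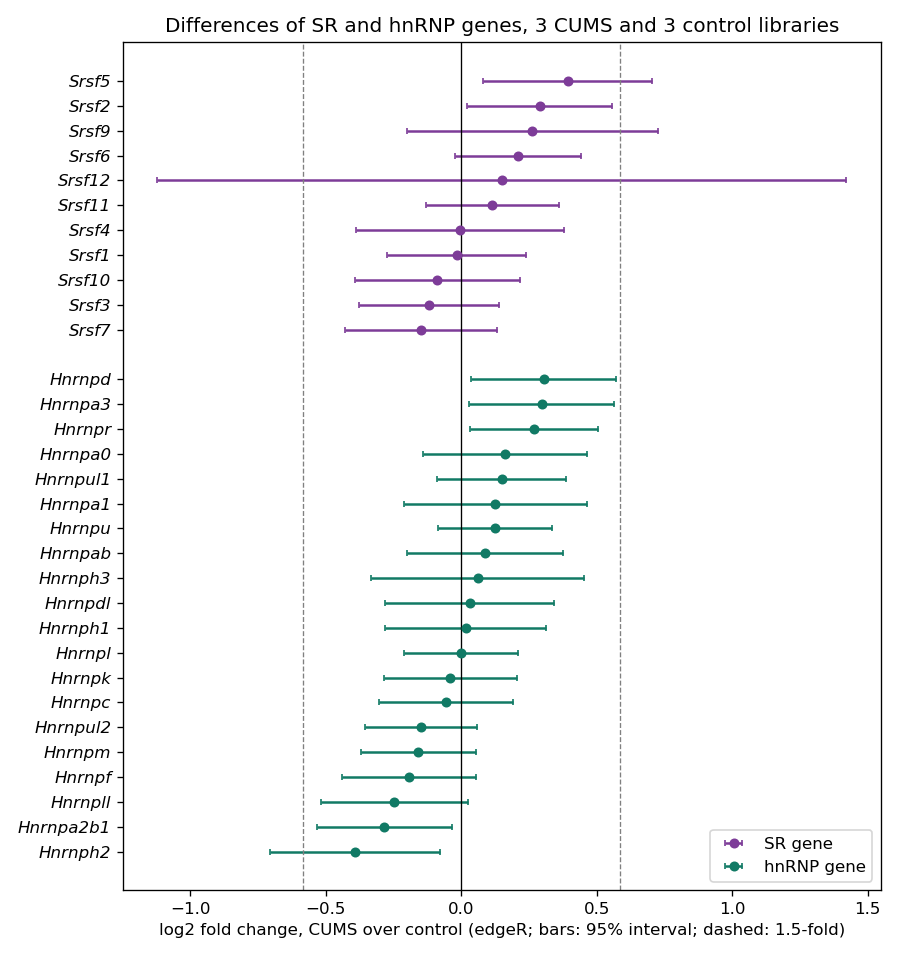
Log2 fold change of each SR and hnRNP gene, CUMS over control (x axis, log2 units), with 95% intervals from the edgeR fit of 3 and 3 libraries; dashed lines mark 1.5-fold. The points lie between -0.39 and 0.39, and the intervals of Srsf5, Srsf2, Hnrnpd, Hnrnpa3, Hnrnpr, Hnrnpa2b1 and Hnrnph2 leave out 0 before adjustment for the number of genes.

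The members differed far more from each other than between the groups. Per kilobase of the deposited gene length, Hnrnpf and Hnrnpa0 had the most reads of the hnRNP family, at 161 and 168 CPM per kilobase in CUMS and 185 and 149.7 in control. Hnrnpf binds G-tracts in RNA and Hnrnpa0 binds AU-rich elements. By that length Srsf5 and Srsf7 had the most of the SR family, at 118 and 83.7 CPM per kilobase in CUMS and 90.2 and 92.7 in control. By the same length Hnrnpll, at 4.37 CPM per kilobase in CUMS and 5.19 in control, was last of the hnRNP family. Srsf12, at 0.891 and 0.804, was last of the SR family. Without division by length, Hnrnph3, at 33.2 CPM in CUMS and 31.8 in control, was below Hnrnpll, at 51.1 and 60.6. The deposited length equalled the union of all GENCODE vM21 exons for 28 of 31 members and was shorter for Srsf7 (2279 against 3550 bases), Hnrnpul2 and Hnrnpm. Per kilobase of that union Srsf7 had 53.7 CPM in CUMS and 59.5 in control, behind Srsf6 (75.95 and 65.7) and near Srsf2 (65.04 and 53.2), so its place in the order depends on the length used.

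**Figure D2:**
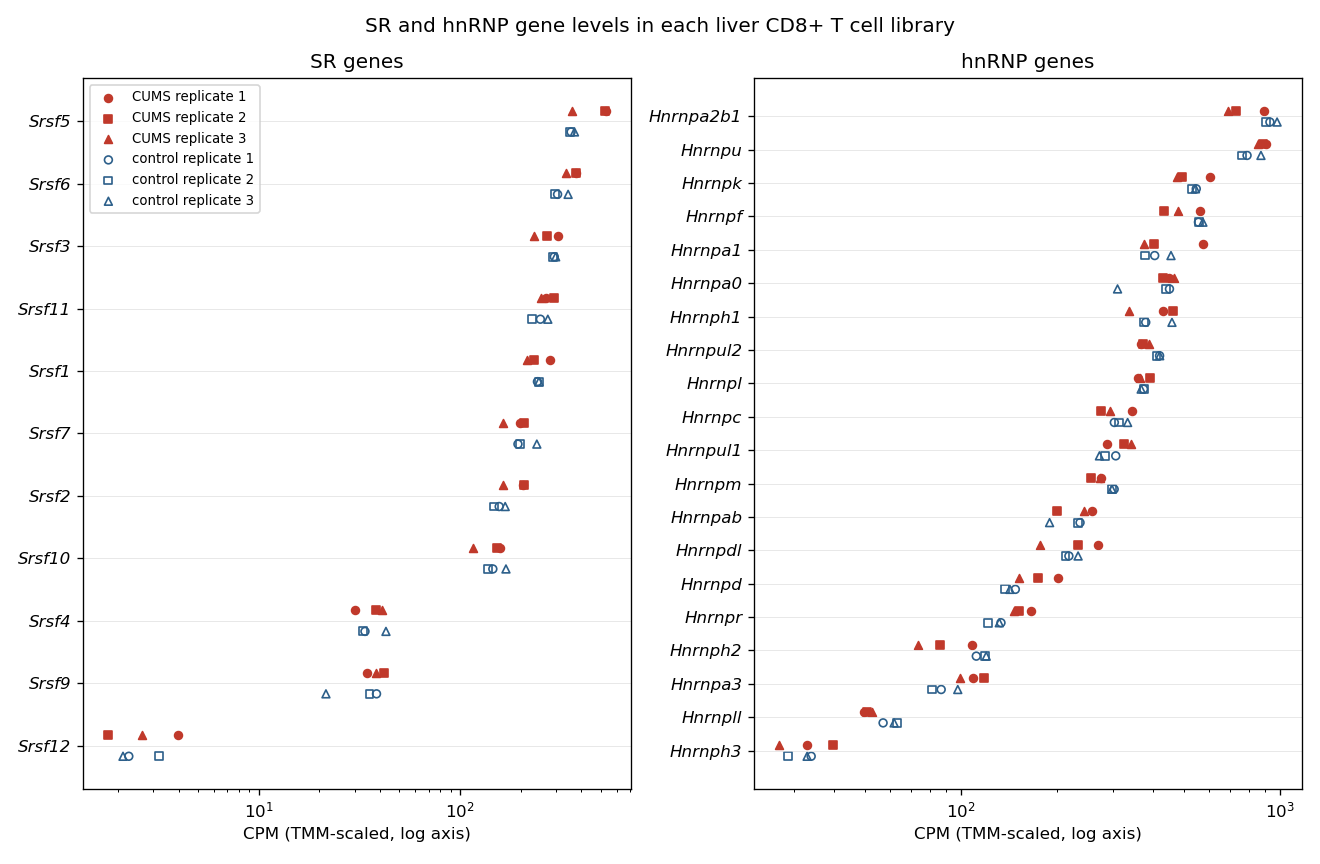
CPM of each SR gene (left) and hnRNP gene (right) in the 6 libraries on a log axis, CUMS as filled symbols above the open control symbols of the same gene, with the symbol shape giving the replicate. Levels run from 1.79 CPM (Srsf12) to 982 CPM (Hnrnpa2b1), and for most genes the groups overlap.

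The promoters of the members at the ends of each family's range of fold changes are shown as examples of the 2 families (RefSeq, GRCm38.p6, 250 bases before to 50 after the gene's start; 29 of 31 members matched). Each is read 5′ to 3′ on the strand of its gene, with capitals marking the letters CCAAT, the box bound by NF-Y, and CCGGAA, the core bound by ETS factors, on either strand. The windows are chr12:80945249-80945548 (plus strand) for Srsf5 and chr17:80207256-80207555 (minus strand) for Srsf7. Those of the hnRNP family are chr5:99978889-99979188 (minus strand) for Hnrnpd and chrX:134600929-134601228 (plus strand) for Hnrnph2.
Srsf5: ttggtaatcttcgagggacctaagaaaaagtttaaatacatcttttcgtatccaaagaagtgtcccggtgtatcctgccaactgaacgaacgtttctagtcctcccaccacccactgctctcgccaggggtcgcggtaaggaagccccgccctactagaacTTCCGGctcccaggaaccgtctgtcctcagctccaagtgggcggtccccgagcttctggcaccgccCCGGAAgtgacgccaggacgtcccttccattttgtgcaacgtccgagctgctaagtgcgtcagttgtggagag
Srsf7: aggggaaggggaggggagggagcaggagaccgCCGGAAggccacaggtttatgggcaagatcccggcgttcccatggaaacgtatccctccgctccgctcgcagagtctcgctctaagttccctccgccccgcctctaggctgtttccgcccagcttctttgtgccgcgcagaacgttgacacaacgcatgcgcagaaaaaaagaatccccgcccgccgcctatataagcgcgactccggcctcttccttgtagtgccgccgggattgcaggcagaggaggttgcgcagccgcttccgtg
Hnrnpd: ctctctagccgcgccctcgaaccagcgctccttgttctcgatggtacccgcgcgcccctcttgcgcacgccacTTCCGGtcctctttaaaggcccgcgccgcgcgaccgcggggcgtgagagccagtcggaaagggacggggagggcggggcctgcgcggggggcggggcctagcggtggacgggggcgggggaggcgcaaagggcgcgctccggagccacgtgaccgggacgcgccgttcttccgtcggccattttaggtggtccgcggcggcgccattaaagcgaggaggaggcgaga
Hnrnph2: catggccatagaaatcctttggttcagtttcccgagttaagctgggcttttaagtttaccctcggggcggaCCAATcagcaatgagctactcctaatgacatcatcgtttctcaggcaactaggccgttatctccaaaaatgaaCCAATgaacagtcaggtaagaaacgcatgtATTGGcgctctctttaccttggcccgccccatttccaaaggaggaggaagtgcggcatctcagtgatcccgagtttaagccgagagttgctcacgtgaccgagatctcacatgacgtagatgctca

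The Srsf5 promoter holds CCGGAA at 2 places and that of Srsf7 at 1, and neither holds CCAAT. Hnrnpd has CCGGAA at 1 place and no CCAAT, and Hnrnph2 has CCAAT at 3 places and no CCGGAA. In the members with a promoter, CCGGAA was found in 6 of 11 SR genes and 6 of 18 hnRNP genes, against 15.2% of 27025 promoters of all genes. CCAAT was found in 4 of 11 SR genes and 12 of 18 hnRNP genes, against 38.0% of all. The GC box GGGCGG was in 10 of 11 and 13 of 18, against 35.9%, and TATAAA in 2 of 11 and 2 of 18, against 14.2%. The median GC content of these windows was 69.0% for SR genes, 61.7% for hnRNP genes and 52.7% for all genes. The 27025 promoters were not matched to the members by GC content or by level. The part of base composition in these counts was not tested. A match is a run of letters and not a measured site.

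Srsf5 had the highest fold change of the SR family. This member of the family carries a pair of RNA recognition motifs and acts in constitutive and alternative splicing. It had 533, 523 and 359.8 CPM in CUMS replicates 1, 2 and 3, against 357, 351 and 371 CPM in control replicates 1, 2 and 3 (mm10 chromosome 12, 80945504 to 80950507, plus strand). CUMS replicates 1 and 2 were above every control, and CUMS replicate 3 lay among the controls. The means were 472 ± 97.2 CPM in CUMS and 359.6 ± 10 CPM in control (SD, n = 3 each). The log2 fold change of Srsf5 was 0.39 ± 0.14 SE with a 95% interval of 0.08 to 0.70, and its edgeR adjusted p was 0.215. Without CUMS replicate 3, Srsf5 passed, with an edgeR adjusted p of 0.0405 and 0.55 as the log2 fold change, the one call of a member in any fit run; over the other alternatives its adjusted p was 0.051 to 0.568.

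Srsf2, known as SC35 and a protein of nuclear speckles, had the same pattern. It had 207, 207 and 163 CPM in CUMS replicates 1, 2 and 3, against 157, 148 and 168 CPM in the controls (chromosome 11, 116849901 to 116853094, minus strand; log2 fold change 0.29 ± 0.12, edgeR adjusted p = 0.288). It overlaps Mettl23 and Mfsd11 on the opposite strand, and reads of the strands cannot be told apart without a stated strand setting. Srsf6, a close relative of Srsf5, had 379, 379 and 338 CPM in CUMS and 306, 298 and 345 CPM in control (0.21 ± 0.11, edgeR adjusted p = 0.39). In all 3 genes CUMS replicates 1 and 2 were above every control and CUMS replicate 3 was within the range of the controls.

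Srsf9, a short SR protein related to Srsf1, had 34.4, 42.1 and 38.2 CPM in CUMS and 38.5, 35.6 and 21.6 CPM in control (log2 fold change 0.26 ± 0.21, edgeR adjusted p = 0.632). Control replicate 3 was the lowest library, and the groups overlapped. Without control replicate 3 the log2 fold change of Srsf9 was 0.03. At the other end of the family were Srsf7, Srsf3 and Srsf10. Srsf7, which carries a zinc knuckle beside its RNA recognition motif, had 199, 208 and 164 CPM in CUMS and 194, 199 and 241 CPM in control (-0.15 ± 0.13, edgeR adjusted p = 0.656). Srsf3, the smallest SR protein and an adaptor for mRNA export, had 308, 271 and 232 CPM in CUMS and 294, 289 and 299 CPM in control (-0.12 ± 0.12, edgeR adjusted p = 0.71). Srsf10, which turns into a general splicing repressor when it is dephosphorylated after heat shock, had 158, 152 and 116 CPM in CUMS and 146, 137 and 169 CPM in control (-0.09 ± 0.14, edgeR adjusted p = 0.84). In each of these 3 genes CUMS replicate 3 was the lowest of the 6 libraries and the groups overlapped.

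The founding SR protein gene Srsf1 had the most even control values of its family, 243, 248 and 247 CPM, beside 281, 233 and 215 CPM in CUMS (log2 fold change -0.02 ± 0.12, 95% interval -0.27 to 0.24). Srsf11, Srsf4 and Srsf12 had fold changes of 0.11, -0.01 and 0.15 on the log2 scale, all with overlapping groups. No SR gene had groups that did not overlap (0 of 11), against 22.7% of all genes tested.

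In the hnRNP family, 3 genes were higher in CUMS without overlap of the groups, and 10.8% of all genes tested were. Hnrnpd encodes AUF1, which binds AU-rich elements and promotes the decay of cytokine and other short-lived mRNAs. It had 202, 175 and 152 CPM in CUMS, against 148, 138 and 142 CPM in control (chromosome 5, 99955935 to 99978938, minus strand; log2 fold change 0.30 ± 0.12, edgeR adjusted p = 0.263). Hnrnpa3, a protein close to hnRNP A2/B1, had 109, 118 and 99.2 CPM in CUMS, against 86.8, 81.2 and 97.8 CPM in control (chromosome 2, 75659261 to 75669407, plus strand; 0.30 ± 0.12, edgeR adjusted p = 0.275). Hnrnpr, a relative of the RNA-binding protein Syncrip, had 166.5, 153 and 147 CPM in CUMS, against 134, 121.5 and 132 CPM in control (chromosome 4, 136310942 to 136359447, plus strand; 0.27 ± 0.11, edgeR adjusted p = 0.262). For Hnrnpd and Hnrnpa3 the gap between the nearest libraries of the 2 groups was narrow, 152 against 148 CPM and 99.2 against 97.8 CPM, and none of the 3 passed.

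Another 5 hnRNP genes were lower in CUMS without overlap, and 11.9% of all genes tested were. Hnrnph2, an X-linked gene for a G-tract binding splicing regulator, had 108, 85.8 and 73.3 CPM in CUMS, against 112, 119 and 120.1 CPM in control (chromosome X, 134601179 to 134607060, plus strand). CUMS replicate 1 was close to the controls and the other two CUMS libraries well below them. Its log2 fold change was -0.39 ± 0.14 (95% interval -0.71 to -0.08, edgeR adjusted p = 0.216). Hnrnpa2b1, the member with the most reads in the controls and the gene of a core hnRNP particle protein, had 896, 731 and 688 CPM in CUMS, against 932, 906 and 982 CPM in control (chromosome 6, 51460932 to 51469894, minus strand; -0.28 ± 0.11, edgeR adjusted p = 0.261). Again CUMS replicate 1 lay near the controls.

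Hnrnpll, the CD45 splicing regulator of T cells, had 49.6, 50.8 and 52.8 CPM in CUMS, against 57.0, 63.0 and 61.8 CPM in control (chromosome 17, 80029487 to 80062334, minus strand). Its 3 CUMS libraries agreed closely and all lay below the controls. The means were 51.1 ± 1.62 CPM in CUMS and 60.6 ± 3.14 CPM in control (SD, n = 3 each), and the log2 fold change was -0.25 ± 0.12 (95% interval -0.52 to 0.02, edgeR adjusted p = 0.383). Hnrnpul2, which is related to the chromatin scaffold protein hnRNP U, had 368, 372 and 388 CPM in CUMS and 420.1, 411 and 420.4 CPM in control (-0.15 ± 0.09, edgeR adjusted p = 0.511). Hnrnpm, a regulator of alternative splicing that binds GU-rich RNA, had 274, 257 and 274 CPM in CUMS and 303, 297 and 298 CPM in control (-0.16 ± 0.10, edgeR adjusted p = 0.496). It overlaps a gene on its own strand, March2.

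The remaining 12 hnRNP genes had overlapping groups. Hnrnpf had 564, 433 and 478 CPM in CUMS and 556, 557 and 574 CPM in control (log2 fold change -0.19 ± 0.11, edgeR adjusted p = 0.473), with CUMS replicates 2 and 3 below the controls. Hnrnpa0 had 448, 432 and 466 CPM in CUMS and 451, 441 and 310.1 CPM in control (0.16 ± 0.14, edgeR adjusted p = 0.651), with control replicate 3 alone low. Hnrnpl, which binds CA repeats and shares CD45 exons with Hnrnpll as targets, had 359.7, 391 and 366 CPM in CUMS and 374, 376 and 368 CPM in control. Its fold change was 0.999 with a 95% interval of 0.863-fold to 1.16-fold, which leaves out a change of 1.5-fold. The exon silencer gene Hnrnpa1 had 574 CPM in CUMS replicate 1 but 402 and 375 CPM in CUMS replicates 2 and 3, beside 405.5, 377 and 456 CPM in control. The other 8, Hnrnpab, Hnrnpc, Hnrnpdl, Hnrnph1, Hnrnph3, Hnrnpk, Hnrnpu and Hnrnpul1, had log2 fold changes from -0.06 to 0.15.

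Counted together, 8 of 20 hnRNP genes (40%) and 0 of 11 SR genes had groups that did not overlap, or 8 of 31 (25.8%), beside 22.7% of all genes tested. The genes tested were not matched to the members by level. These shares, and those given above for each direction, are therefore not a like comparison. The median SD of log2 CPM over 3 libraries was 0.18 in CUMS and 0.07 in control for the hnRNP genes, and 0.20 in CUMS and 0.13 in control for the SR genes. Over the 5559 genes of like level it was 0.17 in CUMS and 0.12 in control. Of these medians the one of the hnRNP genes over the control libraries was the smallest.

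**Figure D3:**
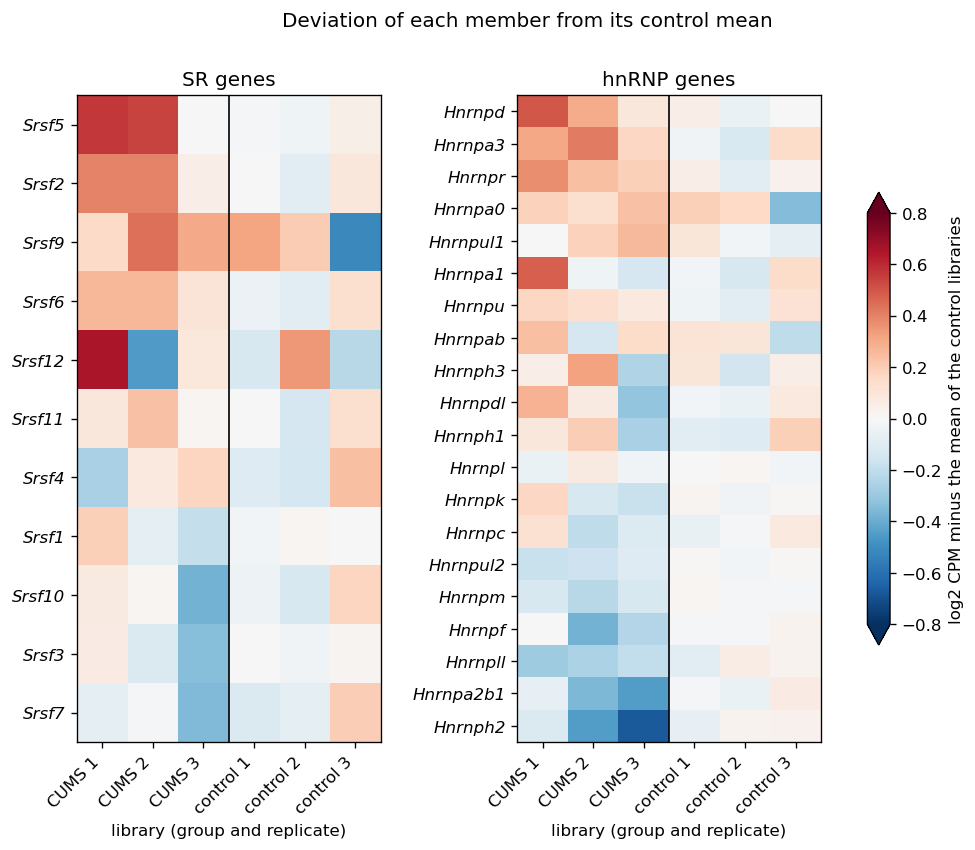
Log2 CPM of each SR gene (left) and hnRNP gene (right) in each library minus the mean of its 3 control libraries, red above and blue below, genes in order of fold change. CUMS replicate 3 was the lowest of the 3 CUMS libraries for 8 of 11 SR genes and 11 of 20 hnRNP genes. Its median deviation from the control mean was 0.0184 over the SR genes and -0.118 over the hnRNP genes.

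The CUMS libraries did not move as one. CUMS replicate 3 was the lowest of the 3 CUMS libraries for 8 of 11 SR genes and 11 of 20 hnRNP genes. Over all genes tested it was the lowest for 36.7%. CUMS replicate 2 was the lowest for 1 SR gene and 5 hnRNP genes, and for 36% of all genes tested. Summed over the 11 genes, the SR family took 2398, 2351 and 1924 CPM in CUMS replicates 1, 2 and 3, and 2021, 1970 and 2179 CPM in the controls. The SR sum was highest in CUMS replicates 1 and 2 and lowest in CUMS replicate 3. The 20 hnRNP genes took 7249.7, 6517 and 6309.5 CPM in CUMS and 6795, 6628 and 6902 CPM in control, with CUMS replicate 1 at the top and CUMS replicate 3 at the bottom. The ratio of the SR sum to the hnRNP sum was 0.331, 0.361 and 0.305 in CUMS and 0.297, 0.297 and 0.316 in control (means 0.332 ± 0.028 and 0.304 ± 0.011, SD, n = 3 each), and the groups overlapped. CUMS replicates 2 and 3 were the libraries with the fewest genes read, and the part of that in these values was not tested.

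Related members were also set against each other within a library, a ratio that no library scaling can change. The 11 pairs of closely related genes were named by hand with earlier results of these data known, and which gene of a pair is divided by the other is arbitrary. For the 6 hnRNP pairs the log2 ratio of counts did not overlap between the groups, and for the 5 SR pairs it did. Over every pair within the same subfamilies, a wider set chosen after the values were seen, 10 of 19 hnRNP pairs and 0 of 6 SR pairs did not overlap. The share over all pairs of the 5559 genes of like level was 27.4%. Among the hnRNP pairs that overlapped were Hnrnpf to Hnrnph1, Hnrnph1 to Hnrnph3 and Hnrnpu to Hnrnpul1. Of the 10 that did not, 3 hold Hnrnpa2b1, 3 hold Hnrnph2 and 2 hold Hnrnpul2, so they are not independent of each other. The widest difference was that of Hnrnpa3 to Hnrnpa2b1, with log2 ratios of -3.03, -2.63 and -2.79 in CUMS and -3.43, -3.48 and -3.33 in control (difference 0.59). Hnrnph1 to Hnrnph2 had 1.99, 2.43 and 2.20 in CUMS and 1.77, 1.65 and 1.94 in control (difference 0.42). Hnrnpa1 to Hnrnpa2b1, a pair that shares a gene with the first, had -0.64, -0.86 and -0.87 in CUMS and -1.20, -1.26 and -1.11 in control (difference 0.40).

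For the CD45 regulators, Hnrnpl to Hnrnpll had log2 ratios of 2.86, 2.95 and 2.79 in CUMS and 2.71, 2.58 and 2.57 in control (difference 0.24). Hnrnpd to Hnrnpdl had -0.41, -0.41 and -0.23 in CUMS and -0.56, -0.63 and -0.71 in control (difference 0.28). Hnrnpul1 to Hnrnpul2 had -0.36, -0.20 and -0.18 in CUMS and -0.46, -0.54 and -0.63 in control (difference 0.30). As written, each of these ratios was higher in all 3 CUMS libraries than in any control. With CUMS replicate 1 as the only CUMS library the 6 differences were 0.18 to 0.55. An exact two-sided permutation test of 3 against 3 libraries cannot go below p = 0.1, so none is given. Over all 190 pairs of hnRNP genes the ratios of the groups did not overlap in 36.3%, over all 55 pairs of SR genes in 21.8%, and over all pairs of the 5559 genes of like level in 27.4%.

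**Figure D4:**
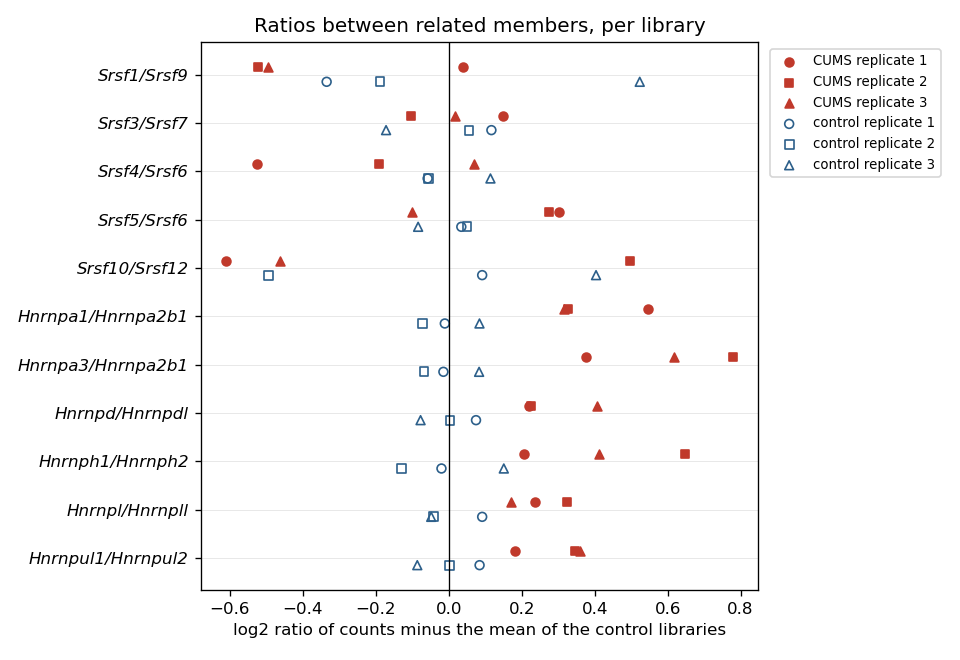
Log2 ratio of counts between related members in each library minus the mean of the control libraries (x axis), CUMS filled and control open. The 6 hnRNP pairs named in the text lie to the right of all controls in all 3 CUMS libraries, and the 5 SR pairs overlap.

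None of the genes on 6 further lists of the splicing machinery passed in the main edgeR fit. Of the 8 SR kinase genes (the SRPK and CLK families and Prpf4b), 0 passed in either direction, with a median log2 fold change of 0.07. Clk1, the CLK kinase gene with the smallest p of that list, had 429.7, 419 and 324 CPM in CUMS and 397, 424 and 510.5 CPM in control (-0.18 ± 0.14, edgeR adjusted p = 0.595). Of 19 genes of SR-related proteins, 0 passed (median 0.01). Tra2a, an SR-like activator of exon inclusion, had 126, 86.7 and 96.3 CPM in CUMS and 149.8, 140.4 and 164 CPM in control (-0.56 ± 0.14, edgeR adjusted p = 0.0872).

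Of 13 hnRNP proteins that go by other symbols, 0 passed (median 0.02). Of 35 genes of the snRNPs and the core spliceosome, 0 passed (median 0.06). Cdc5l, a core component of the active spliceosome, had 79.7, 50.7 and 60.1 CPM in CUMS and 102, 85.8 and 87.1 CPM in control (-0.53 ± 0.17, edgeR adjusted p = 0.151). In Tra2a and in Cdc5l the groups did not overlap, and both genes were called by DESeq2 (adjusted p = 0.00687 and 0.0401) and by limma voom with sample quality weights (adjusted p = 0.0204 and 0.0329).

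Of 10 genes of nonsense-mediated decay, 0 passed (median -0.01). Smg5, which acts on the phosphorylated decay factor Upf1, had 137, 169 and 159 CPM in CUMS and 110.1, 127 and 118 CPM in control (0.39 ± 0.12, edgeR adjusted p = 0.148). Of the 3 transportin genes, whose products bring SR proteins and hnRNPs into the nucleus, 0 passed (median 0.06). Tnpo2 had 93.1, 103.5 and 103 CPM in CUMS and 93.3, 93.2 and 93.2 CPM in control (0.10 ± 0.11, edgeR adjusted p = 0.75).

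The annotation of the same build (GENCODE vM21) shows what gene counts merge. At least 1 transcript classed as a target of nonsense-mediated decay is annotated for 9 of 11 SR genes (81.8%) and 10 of 20 hnRNP genes (50%), against 32.8% of 5404 other protein-coding genes of like level. Retained-intron transcripts are annotated for 8 of 11 SR genes (72.7%) and 14 of 20 hnRNP genes (70%), against 68.7%. Reads of such forms and of the coding forms fall into the same count, so a shift between them was not measured. In the deposited coordinates 12 of 31 members overlap a gene on the opposite strand and 5 a gene on their own strand.

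The members lie on 16 chromosomes, and 4 pairs lie within a megabase of each other. Hnrnpd and its paralog Hnrnpdl are 54.6 kb apart on chromosome 5, and Hnrnpll and Srsf7 137.8 kb apart on chromosome 17. Their log2 fold changes were 0.30 and 0.03 in the first pair and -0.25 and -0.15 in the second. Hnrnpa0 and Hnrnpk are neighbours on chromosome 13 and Srsf10 and Hnrnpr on chromosome 4. The 7 pseudogenes whose description in the table names these families took 6 reads in all libraries together. Other processed copies of hnRNP genes were not searched, and reads shared with such copies make the levels of genes such as Hnrnpa1 and Hnrnpa3 uncertain.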

How the data were processed

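The authors deposited raw counts of reads for each of 54532 genes, without normalization. Per the submitters' processing notes the tools were fastp, HISAT2 2.0.5, featureCounts 1.5.0-p3 and DESeq2 1.20.0, and the build mm10; which annotation release and strand setting were used was not stated. The gene length in bases comes from the same deposited table.

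Testing used edgeR 4.0.16 (R 4.3.3) with filterByExpr, TMM factors and the two-sided quasi-likelihood F test, legacy form, of CUMS against control, with Benjamini-Hochberg adjustment over 14054 genes and a threshold of 0.05. SEs were derived from each fold change and F value, and 95% intervals from the t distribution with the fit's degrees of freedom. All 31 members passed the filter. Log2 CPM used a prior count of 2. A count of 0 allows up to 3 counts, 0.168 to 0.198 CPM; this floor covers counting error only. Pairs of libraries within a group differed beyond counting noise (chi-square per gene 9.27 to 33.46).

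Values are given for members past the threshold, for the 3 highest and 3 lowest fold changes and the 2 highest levels per length in each family, and for the smallest p of each list; other members named with values were chosen after their values were seen. One gene of the lists is not reported here. Members and lists were chosen with earlier results of these data known. Alternatives were median-of-ratios factors, library size alone, no filter, a stricter filter (mean of 50 counts, and 1 CPM in 3 libraries), limma 3.58.1 voom with quality weights, DESeq2 1.42.0, a replicate block, each library left out and, added after seeing the data, CUMS replicates 2 and 3 left out together. The fit was also run on counts simulated from the spread it had estimated for each gene. That run cannot show how the fit handles unequal libraries such as CUMS replicates 2 and 3. Figures used matplotlib 3.10.9.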

Additional observations from a re-analysis of the deposited data

How the results depend on the processing

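Of the 31 members, 0 were called under every alternative with all 6 libraries, and 0 to 1 (Srsf5) when 1 library was left out. Over all genes, edgeR called 704 with no filter (205 higher, 499 lower) and 316 with the stricter filter (108 higher, 208 lower), DESeq2 called 636 (209 higher, 427 lower), and limma voom 497 (205 higher, 292 lower), against 184 (51 higher, 133 lower). Leaving out 1 library gave 9 to 178 calls (1 to 46 higher, 8 to 132 lower), with 9 without CUMS replicate 2, and leaving out CUMS replicates 2 and 3 together gave 7 (1 higher, 6 lower); the cause was not tested.

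Of the 6 further lists, the main edgeR fit called 0 genes. Cdc5l and Tra2a were called by edgeR with no filter, by DESeq2 and by limma voom, and Tra2a also by edgeR without CUMS replicate 1. With 1 library left out, the SR median log2 fold change was 0.0335 to 0.157, the hnRNP median -0.062 to 0.072 and their difference 0.044 to 0.168. The difference was 0.0329 with the stricter filter, which drops Srsf12, and 0.0005 without CUMS replicates 2 and 3 together, where the hnRNP median was 0.0995. The sign of the hnRNP median was therefore not stable.

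With the replicate number as a block (replicate block), 71 genes were called (10 higher, 61 lower) and 0 members. Same-numbered libraries deviated from their group means with correlations of 0.0137, -0.0358 and -0.0369. These values show no shared deviation by number. They cannot exclude that same-numbered libraries were handled together, and the labels do not say what the numbers mark. Srsf12, with 29 to 71 reads a library, had the fewest reads of the members and the widest interval. The part of depth in that width was not tested.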
